A study of Homo sapiens with 6 samples.

Results

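The chaperonin genes of A375 cells were compared between untreated cultures and cultures treated for 24 h with an enzyme that degrades methionine. The group holds the 8 subunit genes of the cytosolic chaperonin TRiC (TCP1, CCT2, CCT3, CCT4, CCT5, CCT6A, CCT7 and CCT8) and the mitochondrial chaperonin pair HSPD1, which encodes HSP60, and HSPE1, which encodes HSP10. These 10 genes were taken by name, as complete families, out of 58523 genes that could be matched in the transcript tables. The families were picked with earlier results of these data known, so the counts over them are a description. A375 is a human melanoma line from a cell bank. According to the labels, 3 cultures stayed untreated (control replicates 1, 2 and 3) and 3 received hMGL (treated replicates 4, 5 and 6), a human enzyme engineered to break down methionine. All 6 were grown in Dulbecco's modified Eagle's medium with 10% fetal bovine serum, penicillin and streptomycin, and the design text calls the cultures independent. The labels give no dose, and the controls received no inactive enzyme, so handling of the cells and the action of the enzyme cannot be told apart. The comparison is of 1 cell line, with treated cells taken at 24 h, and no time is listed for the controls.

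Chaperonins are ring-shaped machines that take an unfolded protein into a central chamber, close it and use ATP to let the protein fold there. TRiC, also called CCT, stacks 2 rings, each built from one copy of every one of its 8 different subunits, so all 8 are needed in equal number. It folds actin and tubulin and a set of other proteins, among them many with WD40 repeats. HSP60 forms the chamber of the mitochondrial matrix, with HSP10 as its lid, and folds proteins that have been imported into mitochondria. Genes of both chaperonins belong to the group that heat shock factor HSF1 can switch on.

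Libraries held 50760266 to 59954677 estimated counts. No pair of replicates was alike within counting noise, with a chi-square per degree of freedom of 4.52 to 12.7 over genes. RN7SL1, a small RNA of the machinery that targets secreted proteins, held 16.1% to 19.4% of all TPM in the controls and 18.5% to 22.1% in the treated libraries. TPM is scaled to a fixed sum, so RN7SL1 moves the TPM of every other gene, and its part in TPM differences between groups was not tested. Of 8 melanoma markers, SOX10 (52.1 to 75.3 TPM), MITF, S100B and S100A1 were above 1 TPM in every library, MLANA, TYR and DCT were under 1 TPM in every library, and PMEL was at 0.332 to 0.376 TPM in the controls and 1.11 to 1.36 TPM in the treated libraries. The summed level of the 8 was 156 to 196 TPM in the controls and 106 to 124 TPM in the treated libraries. Of 14 markers of other cell types, 12 stayed under 1 TPM in every library, none was at 0 in all 6, and their sum was 6.28 to 6.60 TPM in the controls and 4.65 to 5.32 TPM in the treated libraries. The part of these marker levels in the results was not tested.

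All 10 chaperonin mRNAs fell in treated cells. The mitochondrial pair fell most, HSPE1 3.32-fold and HSPD1 2.83-fold. The TRiC subunits fell 1.22-fold (CCT6A) to 2.06-fold (CCT5). Against a background of 34.5% of the 22580 genes tested that were lower at an adjusted p under 0.05 in edgeR, 10 of 10 members were lower. None was higher, beside 34.9% of all genes, and 69.4% of all genes passed in either direction. These shares are larger among well-expressed genes. With a filter of 5 CPM in 3 libraries, 5303 of 11909 genes were lower and 5240 higher. Of 15421 protein-coding genes in the main fit, 6218 were lower and 5862 higher. In all 10 the treated libraries lay below every control library, as they did for 36.5% of all genes, and 36.7% of all genes lay above without overlap. The median log2 fold change was −0.89 over the 10 members and −0.81 over the 8 TRiC subunits, beside −0.015 over all genes tested. Tested against a minimum change of 1.5-fold, 8 of the 10 were lower (background 16.7% lower and 18.7% higher), and CCT6A and CCT7 did not pass. CPM here are gene counts divided by the TMM-scaled library total, so each fold change is relative to the typical gene. In such bulk RNA, fewer cells of a type and less RNA per cell cannot be told apart. The p values measure the spread between these 6 cultures only.

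**Figure D1:**
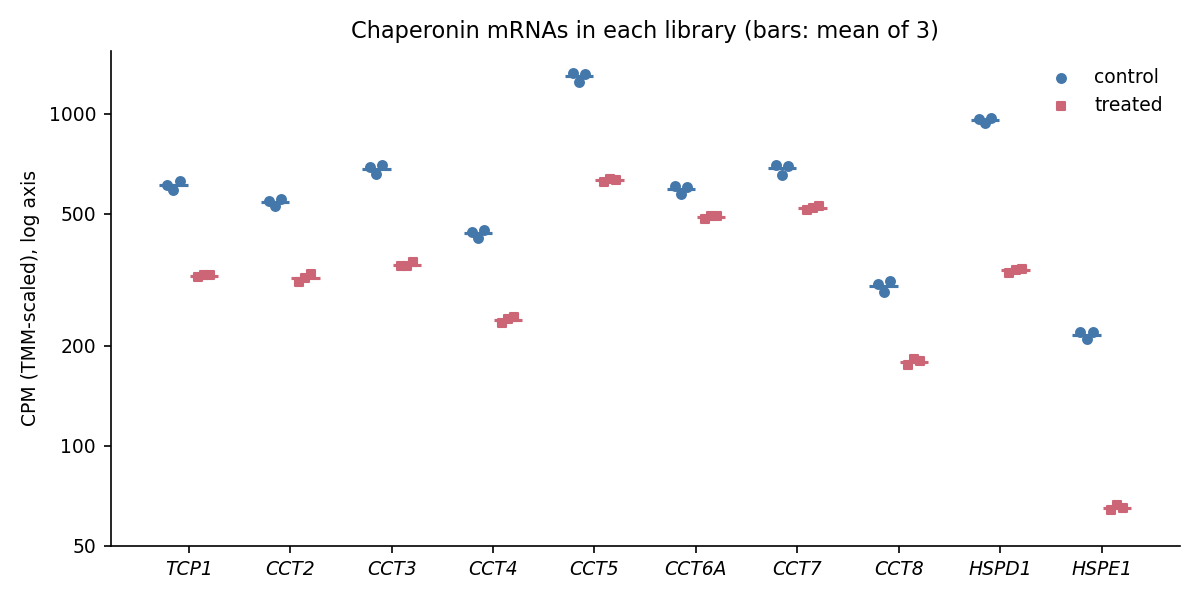
CPM of each chaperonin gene (log axis) in the 3 control libraries (circles) and the 3 treated libraries (squares), with a bar at each group's mean. The treated libraries lie below the controls for every gene, with the widest gap at HSPE1 (216 against 65.1 CPM on average) and the narrowest at CCT6A (594 against 488 CPM).

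HSPD1 encodes the chamber protein of the mitochondrial chaperonin. The gene (ENSG00000144381) lies on the minus strand of chromosome 2 at 197486581 to 197516737 in GRCh38. It read 964, 934 and 969 CPM in control replicates 1, 2 and 3, and 332, 339 and 341 CPM in treated replicates 4, 5 and 6. The 2 groups stood well apart, and the controls differed among themselves by far less than the distance between groups. Its log2 fold change was −1.50 ± 0.028 (SE), with an adjusted p of 9.33e-18 in edgeR. Per length, HSPD1 went from 687 ± 53.1 to 258 ± 16.5 TPM (SD, n = 3 per group).

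HSPE1, the gene of the lid protein (ENSG00000115541), lies on the plus strand of the same chromosome at 197499994 to 197503457, head to head with HSPD1. The annotated span of HSPD1 on the other strand covers this whole stretch, and the labels do not say whether strand was kept. The part of shared reads in the values of either gene was not tested. HSPE1 had 219, 209 and 219.6 CPM in the controls and 64.0, 66.5 and 65.0 CPM in the treated libraries. No treated library came near the lowest control. The log2 fold change of −1.73 ± 0.032 (SE) was the lowest of the 10, with an adjusted p of 1.05e-17 in edgeR, and TPM went from 481 ± 29.7 to 155 ± 7.21 (SD, n = 3 per group). The log2 ratio of HSPD1 to HSPE1 in TPM was 0.52, 0.54 and 0.48 in the controls and 0.77, 0.68 and 0.74 in the treated libraries. The mean ratio was thus 0.22 higher in treated cells on the log2 scale, and the groups did not overlap (exact two-sided permutation test, p = 0.1, the smallest that 3 against 3 allows). The read-through gene HSPE1-MOB4, which shares HSPE1 sequence, had 0.164 to 2.84 CPM over the 6 libraries and did not pass (adjusted p = 0.165 in edgeR).

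RefSeq (GRCh38.p14) places one HSPD1 start 105 bases from the HSPE1 start on the opposite strand, so that both genes read outward from a shared stretch. Letters around short motifs in or near this stretch are shown, and the part of these motifs in the falls was not tested. All are 30 bases long, 5′ to 3′ on the strand of the named gene, with the motif in capitals.
HSPD1 heat shock element, chr2:197500061-197500090, minus strand: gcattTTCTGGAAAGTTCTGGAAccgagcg
HSPE1 E-box, chr2:197500345-197500374, plus strand: gggtgattttttCACGTGtcgccagggccg
HSPE1 NRF1 element, chr2:197500322-197500351, plus strand: tggggcgagcGCGCCTGCGCgctgggtgat
The heat shock element, the sequence bound by HSF1, is a run of GAA units in alternating direction. A run of 3 alternating units with 2 bases of any kind between neighbours occurred in 0.49% of 35116 RefSeq promoter windows of 300 bases. Among the chaperonin genes with a window it was in that of HSPD1 alone. There it extends to 4 units, a pattern searched for after the 3-unit match was seen and present in 0.0342% of the windows. The element lies 245 bases before the downstream HSPD1 start, 189 bases downstream of the other HSPD1 start, and 294 bases before the HSPE1 start, outside the window of HSPE1. The E-box CACGTG (7.26% of windows) and the NRF1 element (5.78%; the capitals above, searched with any base allowed between GCGC and TGCGC) lie in the windows of both genes at the same sites. In GENCODE 29 the heat shock stretch overlaps exons of HSPD1 and HSPE1, and the other stretches an exon of HSPE1. These are matches of letters on either strand and not measured binding.

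CCT5 encodes the epsilon subunit of TRiC and had the highest mRNA level of the 8 per length. It lies on chromosome 5 at 10249921 to 10266412 (plus strand). The controls read 1329, 1245 and 1316 CPM and the treated libraries 623, 635 and 632 CPM. Treated cultures were nearly identical to each other and far under the lowest control, with a log2 fold change of −1.04 ± 0.030 (SE), the deepest of the TRiC genes (adjusted p = 2.24e-15 in edgeR). Its level per length went from 880.5 ± 47.0 to 454 ± 27.8 TPM.

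CCT3, the gamma subunit (chromosome 1, 156308968 to 156367873, minus strand), had 691, 657 and 698 CPM in the controls and 347, 348 and 358 CPM in the treated libraries. It was 1.94-fold lower (adjusted p = 6.80e-15 in edgeR), with no overlap. TCP1, the alpha subunit after which the complex is named (chromosome 6, 159778498 to 159789749, minus strand), had 611, 589 and 628 CPM against 323, 327 and 326 CPM, 1.87-fold lower. The end of TCP1 overlaps ACAT2 on the other strand, which fell from 61.8 ± 1.91 to 12.5 ± 1.01 CPM, and the labels do not say whether strand was kept. The part of shared reads in the TCP1 value was not tested.

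CCT4, the delta subunit (chromosome 2, 61868089 to 61888804, minus strand), read 440.5, 422 and 447 CPM in the controls and 233, 241 and 243 CPM in the treated libraries, 1.83-fold lower. CCT2, the beta subunit (chromosome 12, 69585334 to 69601570, plus strand), read 546, 526 and 552 CPM against 311, 319 and 329 CPM. CCT8, the theta subunit (chromosome 21, 29055805 to 29073797, minus strand), read 307, 289.7 and 313 CPM against 175, 182 and 179.5 CPM. CCT2 and CCT8 were both 1.69-fold lower, with log2 fold changes of −0.76 ± 0.030 and −0.76 ± 0.032 (SE) that did not differ beyond their errors. These 3 genes and TCP1 make up the middle of the range, with log2 fold changes from −0.91 to −0.76.

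CCT7 and CCT6A fell least. CCT7, the eta subunit (chromosome 2, 73233420 to 73253021, plus strand), had 702, 654 and 697 CPM in the controls and 513, 522 and 526.5 CPM in the treated libraries. Its log2 fold change was −0.39 ± 0.031 (SE), with an adjusted p of 2.24e-09 in edgeR. CCT6A, the zeta subunit (chromosome 7, 56051630 to 56063989, plus strand), had 606, 574 and 602 CPM against 482, 492 and 491 CPM. Its log2 fold change was −0.28 ± 0.029 (SE), with an adjusted p of 8.78e-08 in edgeR. Neither gene's groups overlapped, yet neither reached the 1.5-fold requirement. CCT6A has partial copies elsewhere on chromosome 7, of which CCT6P3 had 3.80 to 5.38 CPM and CCT6P1 0.0752 to 4.83 CPM. The part of reads shared with them was not tested.

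**Figure D2:**
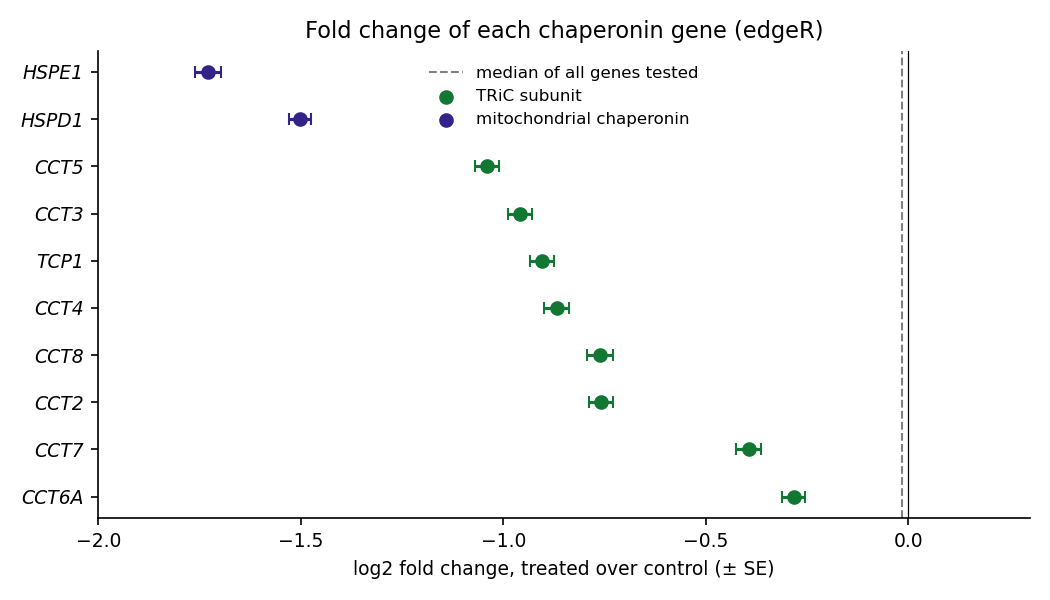
Log2 fold change, treated over control, of each chaperonin gene with its standard error (edgeR), and the median of all genes tested as a dashed line. The mitochondrial pair stands at −1.73 and −1.50, the TRiC subunits run from −1.04 (CCT5) to −0.28 (CCT6A), and the median of all genes is −0.015.

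The unequal falls changed the make-up of TRiC mRNA. The 8 subunits summed to 2605 to 2897 TPM in the controls and 1617 to 1810 TPM in the treated libraries. Within this sum, CCT5 made up 31.8%, 31.9% and 31.8% of the TPM in the controls and 26.8%, 27.0% and 26.8% in the treated libraries. CCT6A went from 8.60% ± 0.0806 to 12.1% ± 0.0749 (SD, n = 3 per group) and CCT7 from 9.06% ± 0.0562 to 12.2% ± 0.0759. CCT3 went from 14.2% ± 0.102 to 12.5% ± 0.197, TCP1 from 12.1% ± 0.132 to 11.3% ± 0.113 and CCT4 from 6.95% ± 0.0634 to 6.79% ± 0.0480. The shares of CCT2 and CCT8 were 0.57 and 0.37 percentage points higher in treated libraries by TPM, but 0.044 and 0.030 points lower (−0.044 and −0.030) when estimated counts were used in place of TPM. The groups did not overlap for any of the 8 shares by TPM. Each had p = 0.1 in an exact two-sided permutation test, which is the smallest that 3 against 3 allows, and 0.1 after Benjamini-Hochberg adjustment over the 8. Shares add to a fixed sum, so the 8 values are not independent.

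**Figure D3:**
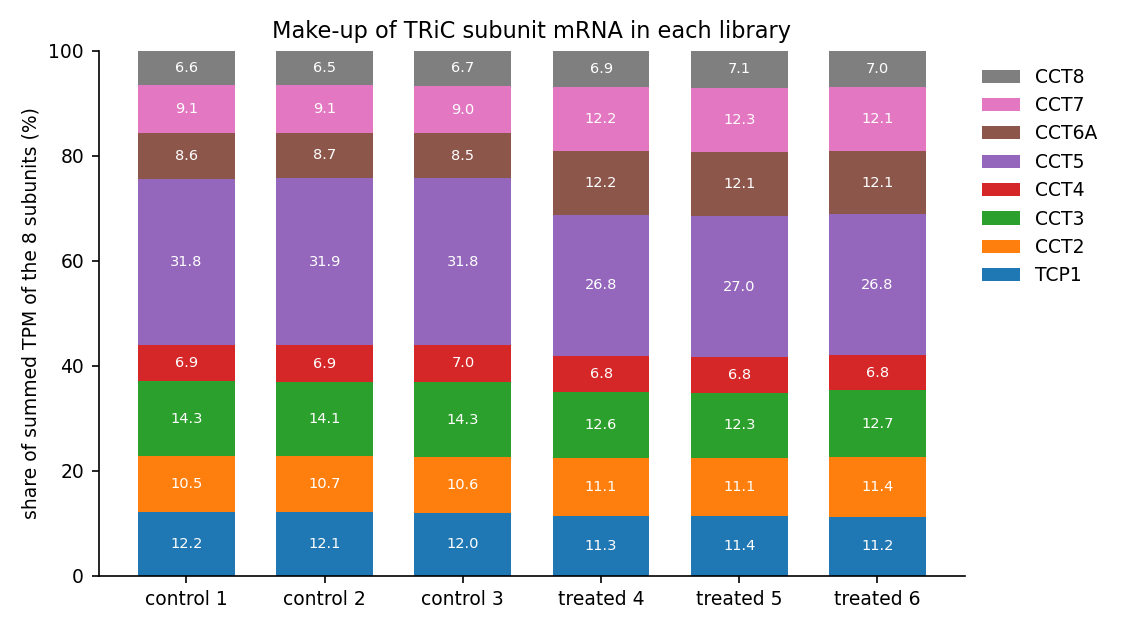
Share of each subunit in the summed TPM of the 8 TRiC genes, in percent, for each library. CCT5 takes 31.8% to 31.9% in the controls and 26.8% to 27.0% in the treated libraries, and CCT6A and CCT7 both widen from about 9% to about 12%.

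The levels of the 8 subunits were unequal in both groups although the complex holds them in equal number. These levels are in TPM, which divides by effective length. That length exceeded the transcript's own length for 25.6% to 27.1% of transcripts per library, and its part in the levels was not tested. The highest, CCT5, was 4.73 to 4.87 times the lowest, CCT8, in the controls and 3.92 to 3.99 times the lowest subunit in the treated libraries. The coefficient of variation over the 8 TPM values was 65.7% ± 0.143 in the controls and 49.9% ± 0.218 in the treated libraries (SD, n = 3 per group), so the subunit mRNAs stood closer together after treatment. In the controls the order by TPM was CCT5 (880.5), CCT3 (394), TCP1 (335), CCT2 (294), CCT7 (251), CCT6A (238), CCT4 (192) and CCT8 (183). In treated cells CCT5 (454) still led, while CCT3 (212), CCT7 (206), CCT6A (205), TCP1 (191.5) and CCT2 (189) followed, and CCT8 (118) and CCT4 (115) came last. Neighbours in this order differed by less than either standard deviation for CCT7 and CCT6A in the controls, and for CCT3 and CCT7, CCT7 and CCT6A, TCP1 and CCT2, and CCT8 and CCT4 in the treated libraries. Within single libraries, however, CCT7 lay above CCT6A in every control. CCT3 lay above CCT7, and CCT8 above CCT4, in every treated library. The order of CCT7 and CCT6A, and that of TCP1 and CCT2, changed between treated libraries. HSPD1 and HSPE1 together were 0.424, 0.429 and 0.412 of the TRiC sum in the controls and 0.243, 0.245 and 0.245 in the treated libraries.

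Most of each gene's counts came from 1 to 3 transcripts. The tables list 124 annotated transcripts of the 10 genes, of which 99 were tested in a fit over 83015 transcripts. Of these, 30 were lower (background 15.2%), 4 were higher (background 17.5%) and 65 did not pass. With a library left out, 27 to 30 were lower, while the number higher was 2 without control replicate 3 or without treated replicate 4, 5 or 6, and 3 without control replicate 2. The 16 transcripts that held at least 10% of their gene's counts were all lower, from CCT6A-201 with a log2 fold change of −0.24 to HSPE1-202 with −2.12. The main coding transcript HSPD1-202 fell 2.87-fold and CCT5-203 fell 2.06-fold. Transcripts annotated as retaining an intron fell beside them, HSPD1-213 by 2.77-fold and CCT5-206 by 2.08-fold. The share of retained-intron transcripts was 18.6% ± 0.870 and 19.7% ± 0.494 of the HSPD1 counts in control and treated libraries, and 15.7% ± 0.163 and 15.6% ± 0.200 of the CCT5 counts (SD, n = 3 per group). These groups of values overlapped for CCT5, and for HSPD1 the control values of 17.6% to 19.1% lay under the treated ones of 19.2% to 20.2%.

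Shifts between transcripts were seen in other members as well. For CCT2 the retained-intron share was 2.22% to 2.28% in the controls and 3.36% to 3.67% in the treated libraries, and for HSPE1 5.11% to 6.01% and 6.67% to 7.42%. For CCT6A it was lower instead, 1.84% to 2.20% and 1.31% to 1.72%. The main coding transcript CCT8-201 took 96.1% ± 0.157 of CCT8 counts in the controls and 92.0% ± 0.231 in the treated libraries. The 4 transcripts called higher with all libraries, named after their values were seen, were minor ones, and not all of these calls hold with a library left out: CCT2-213, CCT5-214, CCT8-209 and CCT8-212. CCT5-214 went from 1.56 to 4.05 CPM in the controls to 8.24 to 8.92 CPM, and CCT8-212 was listed at 0 in every control and at 0.687 to 2.76 CPM in the treated libraries. HSPE1 counts were split between HSPE1-201 and HSPE1-202, whose shares overlapped between the groups (48.3% to 55.0% and 50.7% to 66.1% for HSPE1-201). How the quantifier divides reads between overlapping transcripts is an error that these tables do not show.

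Several members begin beside a gene on the other strand, and these neighbours moved in both directions. Of all genes tested, 34.5% were lower and 34.9% higher, so mixed directions do not set these neighbours apart. By the outermost starts in GENCODE 29, 6 such genes lay within 1000 bases of a member's start, and 5 of them were tested (the microRNA gene MIR3913-1 beside CCT2 was not). PSPH, which makes serine in the last step of its synthesis, starts 26 bases from CCT6A. It had 33.0, 32.1 and 34.5 CPM in the controls and 54.9, 55.0 and 53.0 CPM in the treated libraries, and rose 1.64-fold (adjusted p = 1.57e-11 in edgeR) while CCT6A fell. COMMD1, 80 bases from CCT4, rose 1.24-fold from 11.8 ± 0.201 CPM while CCT4 fell. MRPL18, a mitochondrial ribosomal protein gene 63 bases from TCP1, fell 1.23-fold while TCP1 fell 1.87-fold, though its call was lost in limma on log2(TPM + 1) (−0.16). PRADC1, 182 bases from CCT7, was 1.13-fold lower with an adjusted p of 0.0486 in edgeR and overlapping libraries (12.1 to 14.7 and 11.8 to 12.7 CPM), a call lost under every other scaling tried (log2 fold change −0.19 to −0.067). ATPSCKMT, 24 bases from CCT5, did not pass (log2 fold change −0.20 ± 0.097 SE, adjusted p = 0.0809 in edgeR). HSPD1 and HSPE1 do not appear under this rule because an outlying HSPD1 start is annotated further upstream.

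**Figure D4:**
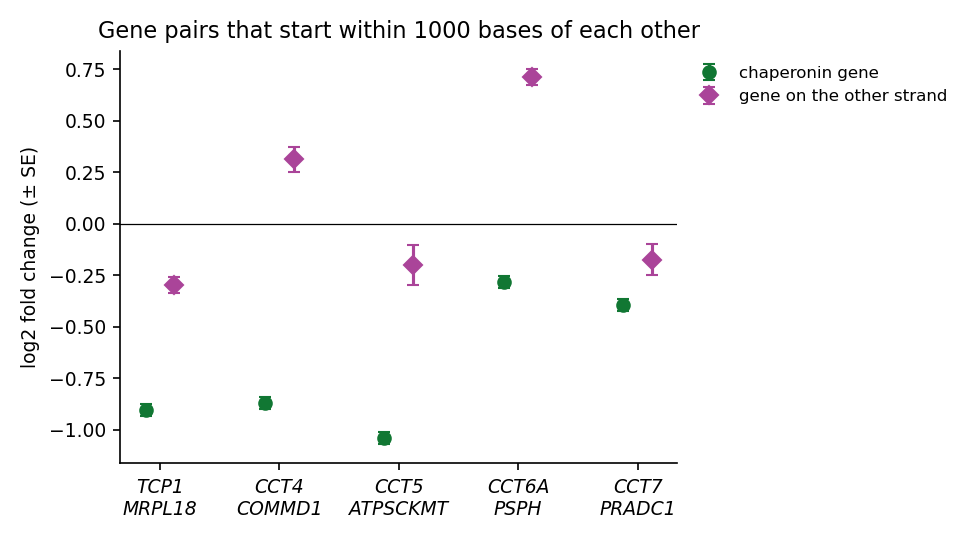
Log2 fold change with standard error (edgeR) of 5 chaperonin genes and of the gene that starts beside each on the other strand. Beside CCT4 and CCT6A the neighbour lies above 0 (COMMD1 at 0.31 and PSPH at 0.71) while the chaperonin gene lies below it. Of all genes tested, 34.9% were higher.

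Short motifs in the TRiC promoters are shown as a description, and their part in the unequal falls was not tested. RefSeq windows (from 250 bases before to 50 after a start) were given for 9 of the 10 members, 12 windows in all, and CCT6A had none. Capitals again mark the motif in stretches of 30 bases.
TCP1 heat shock units, chr6:159789815-159789844, minus strand: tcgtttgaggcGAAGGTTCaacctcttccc
CCT2 heat shock units, chr12:69585789-69585818, plus strand: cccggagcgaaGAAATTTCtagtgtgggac
CCT4 heat shock units, chr2:61888607-61888636, minus strand: cccgacgccggcgccgctTTCTGGAAggtt
CCT3 NRF1 element, chr1:156338494-156338523, minus strand: cagagccttgGCGCCTGCGCcgacgttcgc
CCT5 NRF1 element, chr5:10250496-10250525, plus strand: ccgtggctctGCGCCTGCGCgagttgagga
A pair of units (GAANNTTC in 6.77% of all windows, TTCNNGAA in 7.74%) was found for TCP1, 231 bases before its start, for CCT2, 89 bases before one of its starts, and for CCT4, at base 39 counted from one of its starts, besides HSPD1, where they are part of the longer run. The NRF1 element was found for CCT3 and CCT5 besides the mitochondrial pair, 4 members in all. The window of CCT3 holds the NRF1 element at 2 places, 221 and 170 bases before its start. In GENCODE 29 the TCP1 stretch overlaps an exon of MRPL18 and the CCT3 stretch one of TSACC, both on the other strand, the CCT2 and CCT4 stretches overlap exons of their own genes, and the CCT5 stretch overlaps none. CCAAT, which occurs in 34.6% of all windows, was found for TCP1, CCT2, CCT3 and CCT8, and TGATGNAA, an element that ATF4 and C/EBP factors can use (3.62%), in no window of a member. CCT7 had no match to any of the motifs searched.

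Genes whose products work beside TRiC changed by small amounts. Prefoldin hands unfolded actin and tubulin to TRiC, and phosducin-like proteins assist its folding cycle. Of the 10 prefoldin and phosducin-like genes tested, 7 fell (background 34.5%), 2 rose (background 34.9%) and 1 did not pass, with a median log2 fold change of −0.20. The count was 4 lower and 2 higher with limma on log2(TPM + 1) or log2(TPM + 0.1). PFDN5 fell 1.42-fold from 192 ± 3.89 CPM, PFDN6 1.40-fold and PFDN4 1.27-fold, while PFDN2, a subunit of the same complex, rose 1.18-fold. PDCL3 fell 1.14-fold and PDCL 1.20-fold, calls that were lost in limma on log2(TPM + 1) (−0.069 and −0.18). PDCL2 rose 1.76-fold from 1.45 CPM. None of the 10 passed the 1.5-fold requirement.

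Of 4 chaperonin-like paralogs tested, 2 rose (background 34.9%), 2 did not pass and none was lower (background 34.5%). CCT6B, a copy of the zeta subunit known from testis, had 0.945, 0.886 and 0.984 CPM in the controls and 3.29, 3.72 and 3.36 CPM in the treated libraries. It rose 3.68-fold (adjusted p = 2.25e-09 in edgeR). Per length it stood at 0.473 and 2.07 TPM on average, against 238 and 205 TPM for CCT6A. Among the chaperonin-like genes of the Bardet-Biedl group, BBS10 rose 1.25-fold and MKKS and BBS12 did not pass. CCT8L2 had too few counts to be tested.

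Genes of TRiC clients moved mostly downward. Of 27 client genes tested, 22 fell (background 34.5%) and 5 rose (background 34.9%), with a median log2 fold change of −0.66, beside −0.015 over all genes. With limma on log2(TPM + 1), 18 were lower and 4 higher. Actin ACTG1 fell 4.37-fold from 1905 ± 67.3 to 436 ± 16.7 CPM, and tubulin genes TUBB and TUBB3 fell 4.92-fold and 4.24-fold. TUBA1A fell 3.72-fold. The 5 that rose were TUBB2A (1.40-fold), VHL (1.39-fold), WRAP53 (1.35-fold), PPP2R2A (1.48-fold) and MLST8 (1.17-fold). The WRAP53 call was lost with an effective-length offset (log2 fold change 0.040). Of the 6 tubulin folding cofactors, which take tubulin over from TRiC, 4 fell and 2 rose, against the same background, and leaving out a single library, other than control replicate 2, left 1 higher rather than 2. TBCA fell 2.64-fold and TBCD 2.62-fold, TBCB and ARL2 fell 1.37-fold and 1.31-fold, and TBCC rose 3.54-fold from 23.0 ± 0.746 to 81.6 ± 1.67 CPM. TBCE rose 1.09-fold, a call lost with an effective-length offset (log2 fold change −0.0044) and in limma on TPM.

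Other mitochondrial chaperones and proteases moved in both directions. Of 15 tested, 8 rose (background 34.9%) and 7 fell (background 34.5%), with a median log2 fold change of 0.10. All 15 thus passed in either direction, as did 69.4% of all genes. The number past the threshold was 10 with protein-coding transcripts alone and 12 with limma on log2(TPM + 1) or log2(TPM + 0.1). It was 14 or 15 with a library left out. HSPA9, the mitochondrial HSP70 that pulls proteins in and passes them to HSP60, had 522, 486 and 519.8 CPM in the controls and 752, 768 and 764 CPM in the treated libraries, 1.49-fold higher. Its nucleotide exchange factors GRPEL1 and GRPEL2 rose 1.98-fold and 3.55-fold, and the protease LONP1 rose 2.11-fold from 245 ± 7.80 to 517 ± 5.03 CPM. On the other side TRAP1, the mitochondrial HSP90, fell 2.59-fold, DNAJA3 1.32-fold, CLPP 1.38-fold and SPG7 1.52-fold. ATF5, a transcription factor linked to the mitochondrial unfolded protein response, rose 1.49-fold from 24.9 ± 0.749 CPM. Of 21 genes of mitochondrial protein import, 11 rose, 6 fell and 4 did not pass (median 0.11), against a background of 34.9% higher and 34.5% lower. With library totals 14 were higher and 5 lower. An effective-length offset gave 9 higher and 7 lower, and limma on log2(TPM + 1) 8 higher and 5 lower. TIMM9 rose 3.19-fold, TIMM8A 2.12-fold, TIMM21 1.49-fold and TIMM17A 1.40-fold, while TOMM40, the outer membrane pore, fell by 1.00 on the log2 scale, TOMM6 fell 1.56-fold, PMPCA 1.47-fold and PMPCB 1.45-fold.

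Most cytosolic heat shock genes fell as well. Of 20 tested, 17 fell (background 34.5%) and 3 rose (background 34.9%), with a median log2 fold change of −1.25. With limma on log2(TPM + 1), 15 were lower and 2 higher. HSPA8, the constitutive HSP70, was 13.0-fold lower, HSP90AA1 5.43-fold, DNAJA1 4.19-fold and CACYBP 2.95-fold. HSF1 itself fell 1.20-fold, from 70.3 ± 1.78 to 58.8 ± 0.773 CPM, a call lost with an effective-length offset (log2 fold change −0.12) and in limma on log2(TPM + 1) (−0.016). The 3 that rose were DNAJB1 (1.35-fold), HSF2 (1.16-fold) and DNAJB6 (1.06-fold). The HSF2 call was lost with an effective-length offset (0.14). The 10 chaperonin genes, with changes from −1.73 to −0.28 on the log2 scale, lay inside the range of this list, which ran from −3.70 to 0.43. The median of all genes tested (−0.015) also lay inside this wide range, so the placement does not tie the chaperonin genes to the list.

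**Figure D5:**
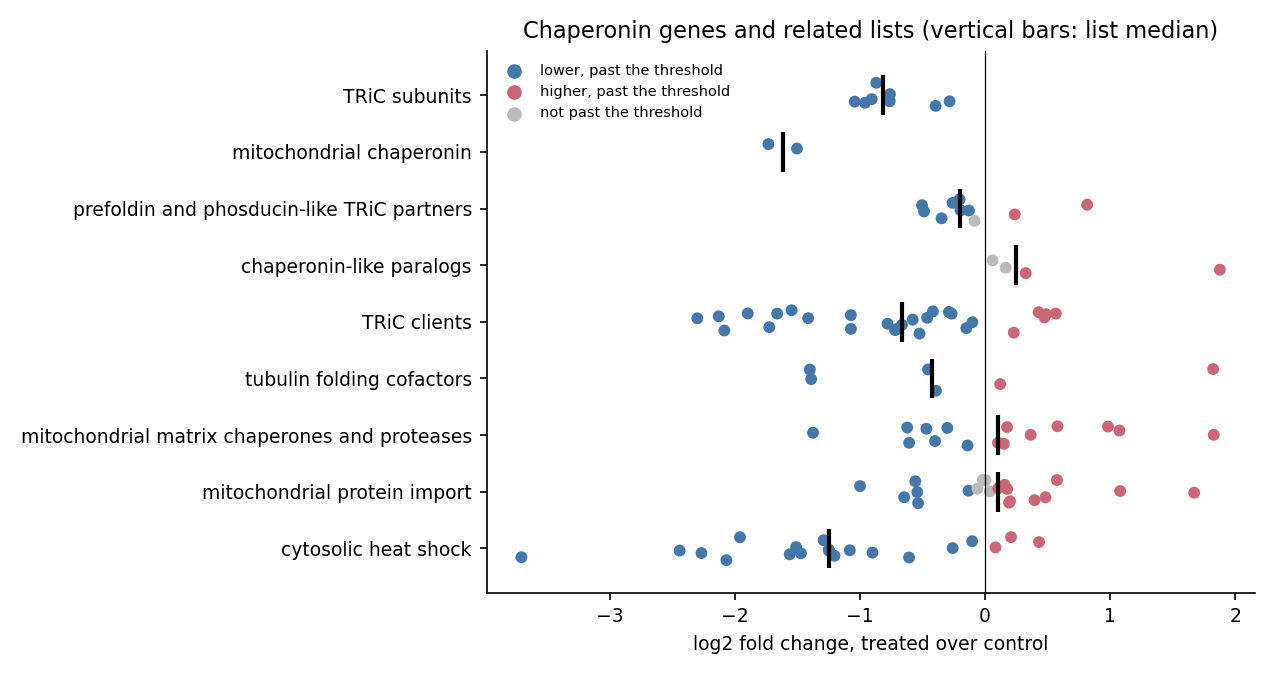
Log2 fold change, treated over control, of each tested gene in the chaperonin groups and 7 related lists, coloured by its edgeR call, with a bar at each list's median. Both chaperonin groups lie wholly below 0 (medians −0.81 and −1.62). The mitochondrial chaperones and proteases (labelled as matrix) and the import genes lie on both sides of 0 (medians 0.10 and 0.11). The cytosolic heat shock list reaches furthest down (median −1.25).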

How the data were processed

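RNA of 6 A375 cultures was sequenced. Per the file headers, the authors deposited 1 table per library with estimated counts (expected counts), TPM, and length and effective length in bases for each of 244939 transcripts. Of tools, kallisto (0.45.0) and DESeq2 (version 1.30.0) are listed in the submitters' processing notes, with no role given, and the genome build and transcript index are not given in the sources used here. Transcripts were matched by identifier to GENCODE 29 (GRCh38). The 41503 unmatched ones, with 4.86% to 5.13% of the counts, were left out, so a gene's level can be a part of its total. Of several records named MKKS, the one with most counts was used.

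Gene sums of estimated counts were rounded, filtered with filterByExpr (minimum count 10, minimum total 15; 22580 genes kept) and scaled by TMM. Groups were compared over all genes by the robust, two-sided quasi-likelihood test in edgeR (version 4.0.16), with Benjamini-Hochberg adjustment and a threshold of 0.05. SE is the log2 fold change divided by the root of F. Transcripts were fitted likewise. CPM errors are SD over 3 libraries. The common biological coefficient of variation was 0.074. The fits were also run on simulated counts in which few features were changed. In the real data 69.4% of genes passed, so that run does not show how the scaling holds here. Alternatives used DESeq2 1.42.0 and limma 3.58.1. Promoters are RefSeq windows.

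The text names all 10 members, from each related list up to 4 genes that rose and up to 4 that fell with the lowest adjusted p, some genes fixed by name, neighbouring genes, and transcripts with at least 10% of a gene's counts. The remaining client gene that rose was added to complete its count. The members and lists were chosen with earlier results of these data known.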

Additional observations from a re-analysis of the deposited data

How the results depend on the processing

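All 10 members were lower in treated cells, past the threshold, with DESeq2 size factors, library totals, DESeq2's own test, no filter, a filter of 5 CPM in 3 libraries, an effective-length offset, protein-coding transcripts alone, limma on log2(TPM + 1) or log2(TPM + 0.1), and without each of the 6 libraries in turn. The largest adjusted p was 0.0379, for CCT6A in limma on log2(TPM + 1). Log2 fold changes ran from −1.75 to −1.63 for HSPE1, −1.52 to −1.41 for HSPD1, −1.07 to −0.95 for CCT5 and −0.32 to −0.21 for CCT6A. With a change of at least 1.5-fold required, 8 members passed, and CCT6A (−0.28, adjusted p = 1) and CCT7 (−0.39, adjusted p = 1) did not. That requirement also lowered the number past the threshold to 0 of the prefoldin and phosducin-like genes, 1 of the paralogs and 13 of the clients. It left 3 of the tubulin cofactors, 4 of the mitochondrial chaperones and proteases, and 3 of the import genes. The stricter filter left 1 paralog past the threshold, since fewer genes were tested. With estimated counts in place of TPM, the differences in share turned to −0.044 percentage points for CCT2 and −0.030 for CCT8. Counts, unlike TPM, are not divided by effective length, and its part in this turn was not tested. Over all genes tested, limma on log2(TPM + 1) gave 5620 lower and 7694 higher, and DESeq2 6695 and 7502, beside 7796 and 7881 in edgeR. Under other scalings the sign turned, among related genes past the threshold in edgeR, for TUBB4B, RPTOR and MOB4 in limma on log2(TPM + 1) (0.0035, 0.025 and 0.032) and for TBCE with the effective-length offset. Of import genes not past it, TOMM20 (−0.016) turned to 0.059 with library totals, past the threshold, and was also above 0 with the offset and in limma, and TIMM50 turned to 0.016 with library totals. The number of member transcripts called higher was 2 to 4 with a library left out, beside 4. No paired analysis was possible because the groups share no replicate number. Depth limits the minor transcripts, some of which had under 1 CPM.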

Other observations

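Pseudogenes and RNAs within the members' loci add a few values to the account above. The processed pseudogene CCT5P1 had 0.0757 to 0.138 CPM in the controls and 0.512 to 0.777 CPM in the treated libraries, and rose (adjusted p = 1.24e-05 in edgeR) while CCT5 fell. HSPD1P11 had 0.852 to 0.963 and 0.508 to 0.778 CPM and did not pass. CCT6P1 had 4.83 CPM in treated replicate 6 and at most 1.16 CPM in each of the other libraries. The small nucleolar RNA SNORA22B, which lies within CCT6A, had 0.197 to 0.527 CPM in the controls and 0.143 to 0.159 CPM in the treated libraries, and SNORA15 in CCT6A and SNORA20 and SNORA29 in TCP1 had too few counts to be tested. MOB4, the next gene after HSPE1, fell from 29.3 ± 0.584 to 23.2 ± 1.02 CPM, though not in limma on TPM (log2 fold change 0.032 on log2(TPM + 1)), and TSACC, which overlaps CCT3 on the other strand, did not pass (1.54 ± 0.193 and 1.76 ± 0.289 CPM).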
